A study of Mus musculus with 10 samples.

Results

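The genes described here are 7 noncoding host genes of small nucleolar RNAs (snoRNAs), namely Gas5, Snhg1, Snhg3, Snhg5, Snhg6, Snhg8 and Snhg12. They were taken by symbol from the 24386 gene rows of a transient transcriptome sequencing (TT-seq) time course, and all 7 had a row in each of the 10 samples and passed the filter on low counts. TT-seq labels RNA with 4-thiouridine (4sU) for a short time and sequences the labeled RNA, so that a value reflects RNA made during the label rather than RNA that has accumulated. The cells were wild-type TX1072, a female mouse embryonic stem cell (ESC) line from a cross of Mus musculus castaneus (Cast) with C57BL/6 (B6), grown on gelatin in serum with LIF and 2i. In this single line a doxycycline (DOX) inducible promoter precedes the endogenous Xist gene on the B6 X chromosome, and the time course follows transcription after Xist is switched on. Cells were grown for 24 h and then received DOX at 1 µg/ml for 0, 4, 8, 12 or 24 h, and 4sU at 0.5 mM was present for the last 5 min. Each time point had 2 replicates, and nothing in the labels states that these came from separate thaws or clones, so that p-values measure the spread between these samples.

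Many snoRNAs guide chemical changes on ribosomal RNA, though not every snoRNA does. Many of the box C/D class direct methylation of the ribose, and many of the box H/ACA class direct the conversion of uridine to pseudouridine. In mammals most snoRNAs lie in introns of a host gene, and they are freed when the intron is spliced out and trimmed. Some hosts code for proteins, many of them of the ribosome, whereas others make a spliced RNA with no long reading frame that is exported and destroyed by nonsense-mediated decay, so that its steady-state level is a poor guide to its transcription. Such genes often begin with a run of pyrimidines at the start site, the 5′ terminal oligopyrimidine (TOP) tract that they share with genes of ribosomal proteins.

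The 7 hosts carried different cargo in the GENCODE annotation of the mm10 genome. Within the deposited spans and on the same strand there were 29 snoRNA entries at 27 separate places. Gas5, named for its rise in growth-arrested cells, held 9 of these places, and Snhg1 held 8. Snhg12 held 4, Snhg3 and Snhg5 held 2 each, and Snhg6 and Snhg8 held 1 each. The positions in mm10, counted from 1, were chr1:161035166-161038537 on the plus strand for Gas5 and chr19:8723487-8726326 on the plus strand for Snhg1. Snhg12 lay at chr4:132308678-132311024 on the plus strand and Snhg3 at chr4:132351933-132353686 on the minus strand, less than 100 kb apart. Snhg5 lay at chr9:88521053-88522897, Snhg6 at chr1:9942025-9944118 and Snhg8 at chr3:123507552-123508336, all on the minus strand. GENCODE typed Snhg6 and Snhg12 as lincRNA and the other 5 as processed transcripts. The spans were short, from 785 bases in Snhg8 to 3372 bases in Gas5. None shared bases with another gene row on either strand, leaving aside rows for small RNAs. For Gas5 the deposited span began later than the GENCODE gene (161034422), and for Snhg3 GENCODE gave a longer span that ended at 132348014.

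One snoRNA is printed for each of the 5 hosts that held a snoRNA row in the deposited tables, since these are the RNAs that the hosts carry. Sequences run 5′ to 3′ and were copied from the GENCODE transcripts. Capitals mark TGATGA within the first 20 bases (the box C letters), CTGA within the last 15 bases (box D) or, in Snora24, ACA within the last 6 bases. The Snord47 sequence in Gas5, the Snord22 sequence in Snhg1, the Snord87 sequence in Snhg6, the Snora24 sequence in Snhg8 and the Snord99 sequence in Snhg12 read as follows.
Snord47: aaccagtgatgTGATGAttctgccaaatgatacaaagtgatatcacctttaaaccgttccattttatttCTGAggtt
Snord22: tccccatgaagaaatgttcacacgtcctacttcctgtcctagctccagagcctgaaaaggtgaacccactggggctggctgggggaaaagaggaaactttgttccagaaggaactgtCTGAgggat
Snord87: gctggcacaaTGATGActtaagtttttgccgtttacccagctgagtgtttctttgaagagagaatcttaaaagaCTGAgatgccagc
Snora24: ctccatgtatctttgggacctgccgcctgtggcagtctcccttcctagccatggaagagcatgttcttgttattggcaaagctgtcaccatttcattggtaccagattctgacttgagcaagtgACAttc
Snord99: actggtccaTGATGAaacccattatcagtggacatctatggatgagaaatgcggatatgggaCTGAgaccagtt

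The snoRNAs themselves could not be read in these tables. The 8 snoRNA rows inside the 7 hosts (4 in Snhg12 and 1 each in Gas5, Snhg1, Snhg6 and Snhg8) were listed at 0 in all 10 samples. The same held for 1588 of 1588 rows that lay wholly inside another row of the same strand, as did Sox2 inside Sox2ot. Among the remaining 22798 rows, 14.0% were at 0 in all samples. A value of 0 in a nested row is therefore reported only as listed. The values below are those of the host spans, introns included, and may leave out read pairs over nested rows.

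The start sites were compared next, as the sequence common to the hosts that lies outside the snoRNAs. RefSeq promoters of the same build (GRCm38.p6) were given for 6 of the 7 hosts, Snhg6 being the exception. Only promoters whose start coincided with the deposited start of the gene were kept. The sequences show the 40 bases before the start site and the first 20 bases from it on, in the direction of transcription. Capitals mark TATA between 40 and 20 bases before the start site and a run of 5 or more C or T that comes within 5 bases of the start site on the gene's strand. TATA reads the same on both strands. Both features were chosen after the sequences had been seen.
Gas5: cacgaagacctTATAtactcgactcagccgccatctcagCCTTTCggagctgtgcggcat
Snhg1: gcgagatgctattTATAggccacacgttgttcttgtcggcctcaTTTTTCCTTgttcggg
Snhg3: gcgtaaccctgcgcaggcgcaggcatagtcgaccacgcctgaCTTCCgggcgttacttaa
Snhg5: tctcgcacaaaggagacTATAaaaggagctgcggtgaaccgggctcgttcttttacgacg
Snhg8: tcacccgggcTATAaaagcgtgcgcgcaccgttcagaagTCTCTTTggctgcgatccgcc
Snhg12: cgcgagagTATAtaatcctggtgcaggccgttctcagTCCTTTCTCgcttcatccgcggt

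TATA was present in 5 of the 6 hosts, all but Snhg3, at 23 to 32 bases before the start site. Of 32851 mouse promoters in the same table, 5.49% held it in that window. The pyrimidine run was present in 5 of the 6, all but Snhg5, against 31.4% of all promoters. Its length was 9 bases in Snhg1 and Snhg12, 7 in Snhg8, 6 in Gas5 and 5 in Snhg3. In Snhg5 a run of C and T lay further after the start site, outside the searched bases. Both features occurred together in Gas5, Snhg1, Snhg8 and Snhg12, and in 1.81% of all promoters. In Gas5, Snhg8 and Snhg12 the run spanned the annotated start site, whereas in Snhg1 and Snhg3 it began a few bases after it. These are matches of letters to the annotated start and are not evidence that a factor binds there.

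Total counts per sample ran from 18809046 to 22274929, of which 49.2% to 52.8% were assigned to an allele. The lowest of these shares was in replicate 1 of 0 h, and the next lowest was 51.7% in replicate 1 of 4 h. Replicate 1 of 0 h thus stood apart, and it is part of the baseline of each comparison with 0 h. Levels are given as CPM, counts scaled to a common library size with TMM factors. Xist, the induced gene, had 32 and 31 counts in the 0 h samples and 334 to 669 CPM in the samples with DOX. ESC markers were abundant, with Esrrb at 974 to 1102 CPM, Nanog at 273 to 330 CPM and Pou5f1 at 104 to 134 CPM. Markers of other lineages were lower but not absent. Sox17 had no more than 9 counts, Gata6 no more than 22 and Col1a1 no more than 23, whereas Cdx2 had 40 to 122 counts (at most 5.64 CPM) and T had 112 to 178 (at most 8.23 CPM). Because these are bulk samples, fewer cells transcribing a gene and less RNA per cell cannot be told apart.

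The 7 hosts were among the tested genes with the most counts per kb of gene span. Their counts summed to between 0.0880% and 0.119% of all counts of a sample. Gas5 led with 134 ± 12.2 CPM per kb of gene span (mean ± SD over the 10 samples), followed by Snhg1 with 77.1 ± 7.46, Snhg5 with 61.5 ± 5.42 and Snhg3 with 45.7 ± 5.13. Snhg6 (29.5 ± 3.36), Snhg12 (28.4 ± 2.78) and Snhg8 (28.1 ± 3.94) formed the lower end. The median of the 14525 tested genes was 0.988 CPM per kb and their 90th percentile was 5.12. Only 0.0620% of tested genes lay above Gas5 on this scale, and 1.07% lay above Snhg8. Just 1080 of the tested genes were no longer than Gas5, and a ranking among genes of like length was not made.

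The order of the levels was firm at some steps and not at others. The ranges of Gas5 and Snhg1 over the 10 samples did not overlap, and neither did those of Snhg3 and Snhg6. Snhg1 and Snhg5 overlapped in range, but Snhg1 was the higher in 10 of 10 samples, as was Snhg5 against Snhg3. Snhg6 was above Snhg12 in 7 of 10 samples and Snhg12 above Snhg8 in 5 of 10, so that the last 3 did not differ beyond their spread. The counting options in the study's methods do not include the one that counts read pairs overlapping more than 1 row, so that the level of a host with nested rows may leave out read pairs over them.

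**Figure D1:**
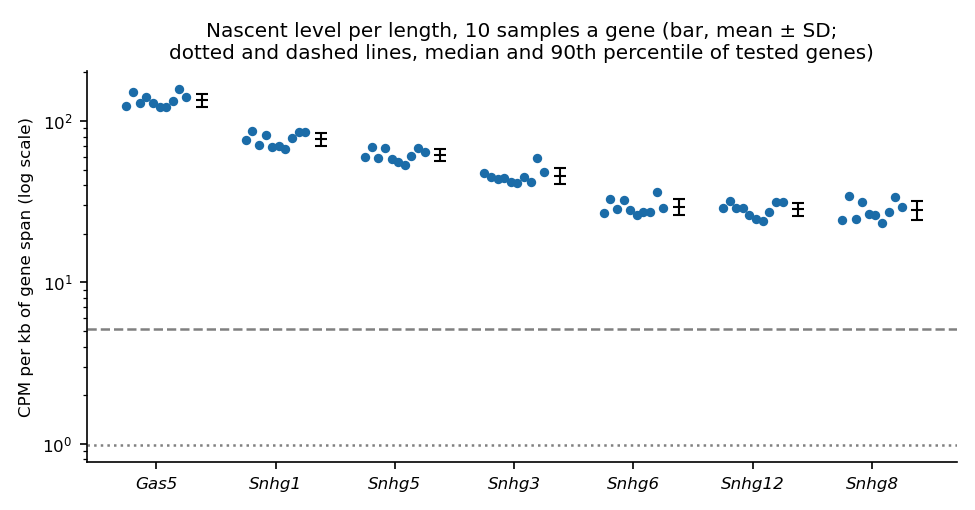
Nascent level of each host per kb of gene span (log axis), with 1 point per sample, a bar for the mean ± SD of 10 samples, and dotted and dashed lines for the median (0.988) and 90th percentile (5.12) of all tested genes. All points of the 7 hosts lie above the dashed line, and Gas5 stands clear of Snhg1.

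Over the DOX time course no host passed the test, and the 7 profiles were alike in shape. Their mean levels at 8 and 12 h were below those at 0 h and after 24 h in all 7, with fitted folds of 0.838 to 0.919 after 8 h and 0.847 to 0.941 after 12 h against 0 h. Gas5 had 416 and 506 CPM at 0 h (replicates 1 and 2), 436 and 472 after 4 h, 433 and 414 after 8 h, 409 and 446 after 12 h, and 531 and 472 after 24 h. The 8 and 12 h samples of Gas5 were all below both 24 h samples, and overlapped those of 0 h. Snhg1, host of Snord22, had 216 and 246 CPM at 0 h, 202 and 233 after 4 h, 196 and 199 after 8 h, 189 and 222 after 12 h, and 242 and 241 after 24 h. Here too the 24 h pair lay above all samples of 8 and 12 h.

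Snhg3, host of Snora73a and Snora73b, had 83.3 and 78.3 CPM at 0 h, 76.7 and 78.2 after 4 h, 73.0 and 72.4 after 8 h, 78.7 and 73.4 after 12 h, and 103 and 84.7 after 24 h. It was the only host in which the 24 h samples were both above both 0 h samples. Snhg12, its neighbor with box H/ACA and box C/D cargo, had 67.8 and 74.6 CPM at 0 h, 68.1 and 68.2 after 4 h, 61.2 and 58.1 after 8 h, 56.4 and 64.1 after 12 h, and 73.8 and 73.6 after 24 h. It was the only host in which all 8 and 12 h samples were below both samples of 0 h as well as of 24 h. The shares of tested genes with this separation, or with that of Snhg3, were not counted, so that neither is read as particular to its host. Snhg5, host of Snord50a and Snord50b, ranged from 98.1 CPM at 12 h to 127 CPM at 0 h. Snhg6 ranged from 54.5 CPM after 8 h to 76.4 CPM after 24 h, and Snhg8 from 18.4 CPM after 12 h to 27.1 CPM at 0 h.

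**Figure D2:**
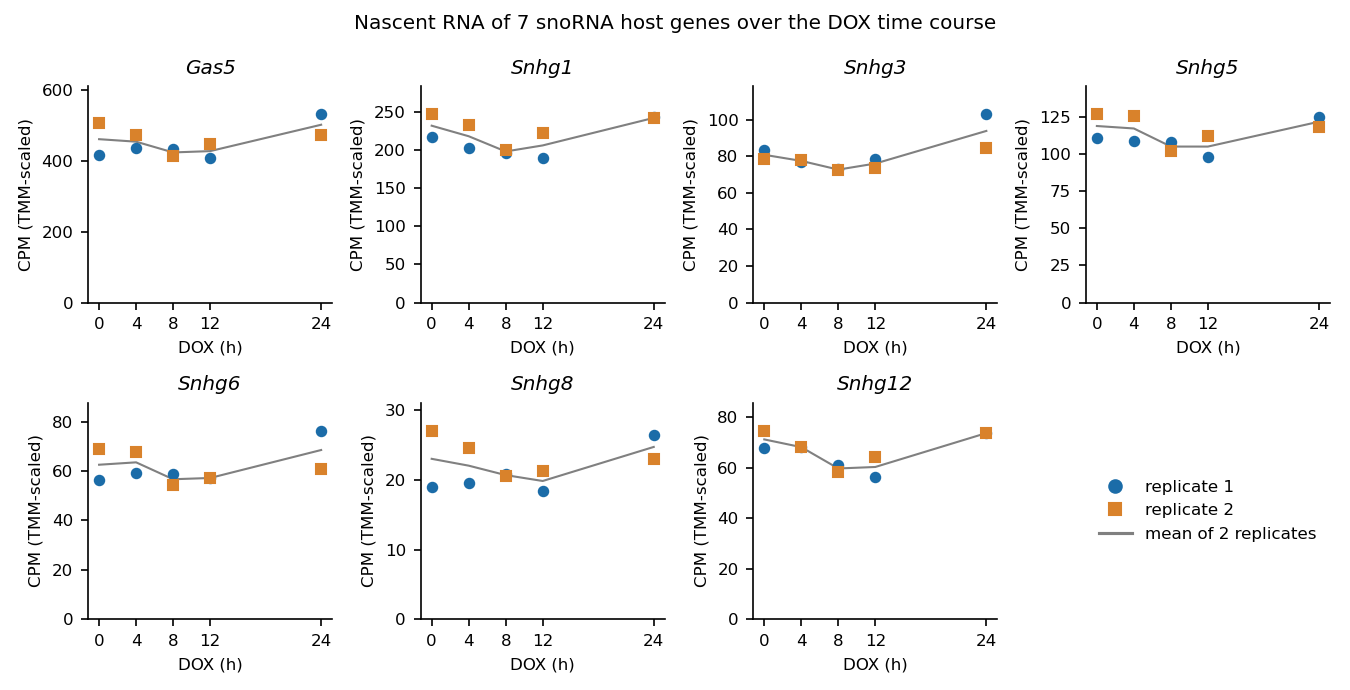
TMM-scaled CPM (vertical axes, starting at 0) of each host against hours of DOX, with circles for replicate 1, squares for replicate 2 and a line through the means of 2. In every panel the 4 samples of 8 and 12 h lie below both samples of 24 h, and the 0 h pair is wide apart in Gas5, from 416 to 506 CPM.

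Summed over the 7 hosts, the level was 1049 ± 112 CPM at 0 h (SD, n = 2), 1020 ± 69.9 after 4 h, 936 ± 21.4 after 8 h, 951 ± 63.0 after 12 h and 1126 ± 74.2 after 24 h. The spread at 0 h was the widest of the 5 time points. At 0 h replicate 2 was above replicate 1 in 6 of the 7 hosts, whereas 49.8% of all tested genes had that order. At 4 h it was above in 7 of 7, after 8 h in 1, after 12 h in 6 and after 24 h in 0. The 7 hosts are therefore not treated as 7 independent readings of DOX.

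Each later time was compared with 0 h by edgeR's quasi-likelihood test on total counts. None of the 7 hosts was called at an adjusted p under 0.05 at 4 h, when 0.0138% of tested genes were. The counts of hosts called were likewise 0 of 7 at 8 h, 12 h and 24 h, against 0.193%, 0.95% and 1.85% of tested genes. A fit of a straight trend over hours also called 0 of 7, against 3.15%. DESeq2 called 0 of 7 in each of these comparisons as well. These shares include X-linked genes, and those of autosomal genes alone were not counted. With shares this low, a count of 0 among 7 genes is near the background. At an unadjusted p under 0.05 the number was 0 of 7 after 4 h, 2 after 8 h (Snhg1 and Snhg12), 1 after 12 h (Snhg12) and 1 after 24 h (Snhg3), and Snhg3 again was the 1 in the trend. The shares of tested genes at the same threshold were 2.09%, 4.06%, 11.5%, 10.3% and 13.2%, so that 1 of 7 is near the background after 12 and 24 h and in the trend.

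The median log2 fold change over the hosts was -0.06 after 4 h, -0.15 after 8 h, -0.17 after 12 h and 0.10 after 24 h. Over all tested genes it was within 0.01 of 0 at each of these times. At 8 h all 7 estimates were below 0, from -0.25 in Snhg12 to -0.12 in Gas5. At 12 h all 7 were again below 0, from -0.24 in Snhg12 to -0.09 in Snhg3. At 24 h all 7 were above 0, from 0.03 in Snhg5 to 0.22 in Snhg3. These 4 contrasts share the 0 h samples, so that a 0 h sample that stands apart moves all of them together. Without replicate 2 of 0 h, the estimates of Gas5, Snhg6 and Snhg8 came out above 0 after 8 h (0.01, 0.0011 and 0.11) and after 12 h (0.02, 0.01 and 0.05). Without replicate 1 of 0 h, the estimates at 24 h of all hosts but Snhg3 came out below 0, from -0.0044 in Snhg6 to -0.13 in Snhg8. The 95% intervals of the 7 hosts ran from -0.23 to 0.43 at 24 h, which leaves room for changes of up to that size.

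The return between 12 and 24 h did not use the 0 h samples. It was compared after the dip had been seen, and is a description for that reason. All 7 hosts were higher after 24 h than after 12 h, by 0.21 (Snhg5) to 0.32 (Snhg8) on the log2 scale, with a median of 0.26 against 0.01 over all tested genes. The size leaned on single libraries. With 1 library left out at a time, the lowest estimate of a host ran from 0.0865 in Snhg6 to 0.2049 in Snhg8. In Snhg12 the log2 difference was 0.29 (SE 0.08, edgeR adjusted p = 0.400) and in Snhg3 it was 0.30 (SE 0.09, edgeR adjusted p = 0.400). None of the 7 was called by edgeR or DESeq2, and edgeR called 0.00688% of tested genes. At an unadjusted p under 0.05 there were 6 of 7, all but Snhg8, against 9.02% of tested genes. With the replicate number as a block, the edgeR adjusted p was 0.0277 for Snhg3 and 0.0358 for Snhg12, so that 2 of 7 hosts were called, against 1.48% of tested genes in the same fit. Same-numbered samples deviated together only weakly over all tested genes (correlations of 0.142 to 0.281). In the hosts, replicate 2 was above replicate 1 in 6 of 7 after 12 h and in 0 of 7 after 24 h, so that the pairing is not borne out for them. Over all alternatives the adjusted p ran up to 0.9365 and 0.9345.

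**Figure D3:**
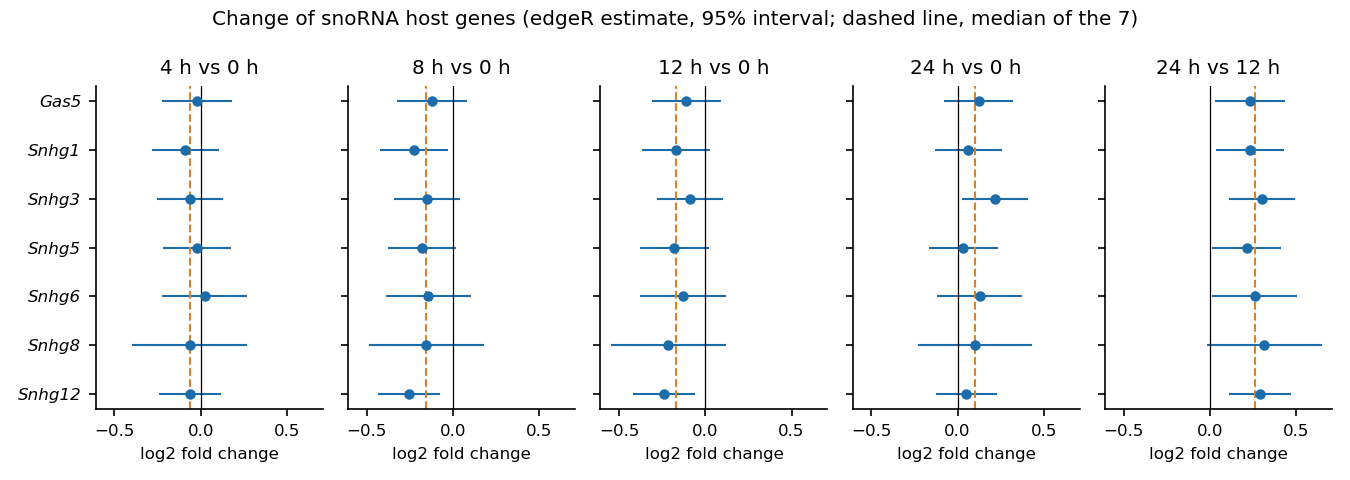
edgeR log2 fold changes of total counts (horizontal axes) with 95% intervals for each host in 5 comparisons, with a solid line at 0 and a dashed line at the median of the 7. Estimates sit left of 0 at 8 and 12 h and right of 0 at 24 h against both 0 h and 12 h, and most intervals against 0 h include 0.

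The shape itself, with the means at 8 and 12 h both below the means at 0 and 24 h, was found in 7 of 7 hosts and in 20.4% of tested genes. The stricter form, in which all 4 samples of 8 and 12 h were below both samples of 24 h, was found in 7 of 7 and in 11.4%. Both forms were defined after the profiles of these hosts had been seen. The 7 of 7 is therefore a description and not a test, and the hosts are not independent readings. Without replicate 2 of 0 h the first form remained in 4 of 7 hosts (not in Gas5, Snhg6 and Snhg8), and without any other single library of 0 or 24 h it was found in 7 of 7. Gene length moved with this shape. Of the 1080 tested genes no longer than Gas5, 35.6% had the first form and 14.4% the stricter one. Their median log2 change after 12 h against 0 h was -0.15, close to the -0.17 of the hosts, while that after 24 h against 12 h was 0.12, below the 0.26 of the hosts. The part of gene length in the hosts' profile was not tested.

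Other noncoding snoRNA hosts were read from a list of 14 genes, of which 13 had a row and were tested. By edgeR 0 of 13 were called in any comparison of total counts, and by DESeq2 0 as well, with 0 to 5 of the 13 at an unadjusted p under 0.05. Their median log2 change was -0.13 after 8 h, -0.15 after 12 h and 0.07 after 24 h against 0 h, and 0.22 after 24 h against 12 h. The stricter form of the dip was found in 7 of the 13, against 11.4% of tested genes. Snhg7 had log2 values of -0.27 after 12 h against 0 h and 0.26 after 24 h against 12 h, and Dancr had -0.31 and 0.30. The long imprinted snoRNA hosts had values above 0 after 12 h, with 0.29 in Snhg14, which carries the Snord115 and Snord116 clusters, and 0.13 in Rian, which carries the Snord113 and Snord114 clusters.

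The proteins that bind snoRNAs were read from the same tables. Fbl, the methyltransferase of box C/D particles, had a log2 change of -0.10 after 12 h against 0 h and -0.03 after 24 h against 12 h, and 0 of 4 box C/D core genes were called in any comparison of total counts. Dkc1, the X-linked pseudouridine synthase of box H/ACA particles, had -0.26 and 0.22, and its partner Nhp2 had -0.27 and 0.18, with 0 of 4 box H/ACA core genes called in total counts. The B6 share of Dkc1 was called lower after 24 h than at 0 h (log2 ratio -0.32, SE 0.09, edgeR adjusted p = 0.0161). Of 10 tested genes of snoRNP assembly, 0 were called in any comparison of total counts. DESeq2 also called 0 of these 3 lists in total counts, and at an unadjusted p under 0.05 there were at most 1 box C/D, 2 box H/ACA and 1 assembly gene in a comparison. Of 10 genes of nonsense-mediated decay, the pathway that removes the spliced RNA of these hosts, 1 was called lower in total counts at 24 h, the X-linked Upf3b (log2 -0.33, SE 0.08, edgeR adjusted p = 0.0438). The trend over hours called the same gene alone (log2 -0.35 per 24 h, edgeR adjusted p = 0.00705).

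Of the hosts, 2 have a gene that starts close by in the opposite direction. Slc3a2, the heavy chain of amino acid transporters, starts 118 bases from Snhg1 on the other strand. It had 116 and 122 CPM at 0 h, 116 and 116 after 12 h, and 120 and 123 after 24 h, with a log2 change of 0.06 (SE 0.07) after 24 h against 12 h beside 0.23 (SE 0.09) in Snhg1. Zbtb37, a zinc finger gene, starts 907 bases from Gas5 on the other strand, and its change at 24 h against 12 h was -0.09 (SE 0.09) beside 0.23 (SE 0.09) in Gas5. Neither partner was called in any comparison of total counts, and the difference between a host and its partner was not tested.

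The allelic share was measured by the d-score, the B6 reads over the sum of B6 and Cast reads. The 7 hosts are autosomal, and Xist is induced on the B6 X chromosome only, so that the autosomal d-score asks whether the alleles drift during the time course. Precision differed widely with the number of reads that carried a strain difference. Snhg1 had 1642 to 2366 allelic reads per sample, 38.2% to 43.9% of its total, and Snhg3 had 1230 to 1694, which was 82.6% to 89.3%. Gas5 had the most reads of all hosts but only 4.78% to 6.51% of them were allelic, 430 to 715 per sample. Snhg8 had the fewest, 157 to 325.

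The allelic reads of Snhg3 came mainly from the Cast allele at every time point. Its d-scores were 0.303 and 0.313 at 0 h, 0.294 and 0.316 after 4 h, 0.295 and 0.300 after 8 h, 0.326 and 0.310 after 12 h, and 0.320 and 0.346 after 24 h. All 10 samples lay below the lowest value of any other host, 0.415 in Snhg8 at 12 h. Pooled over samples the d-score was 0.314, with a 95% Wilson interval of 0.306 to 0.321 that covers counting error only. The log2 ratio of B6 to Cast reads was -1.14 (SE 0.03, edgeR adjusted p = 2.73e-17 over all genes), and over all alternatives the adjusted p was at most 1.09e-15. Of all tested genes, 4.55% had a ratio as low or lower, and 13.8% were called with a log2 ratio of at least 1 in size, among which Snhg3 was the only host.

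The genes around Snhg3 had d-scores apart from it. Within 100 kb of it, Gmeb1, Phactr4, Rcc1, Snhg12, Taf12 and Trnau1ap had enough allelic reads. Their median d-scores ran from 0.480 in Trnau1ap to 0.590 in Taf12, and the lowest single value among them was 0.445. Snhg12 had a median of 0.508, and Phactr4 and Taf12 were the most B6-biased with log2 ratios of 0.55 (SE 0.03) and 0.56 (SE 0.06). No range of these 6 genes touched that of Snhg3.

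**Figure D4:**
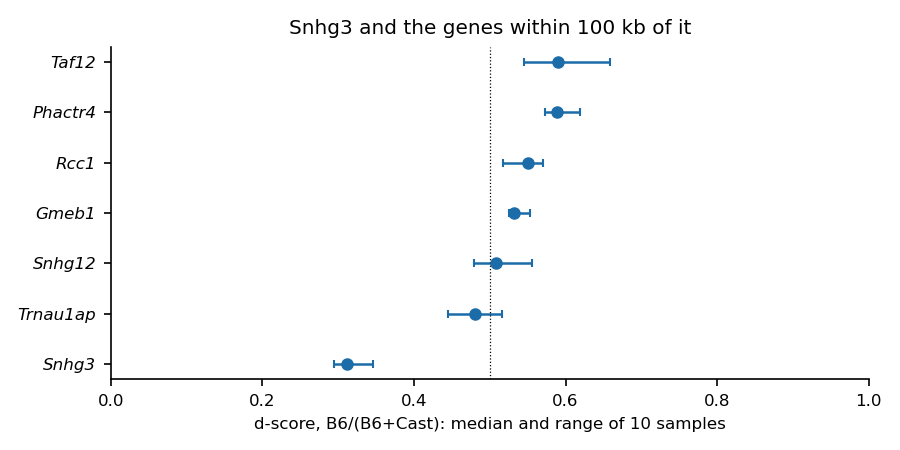
d-score (horizontal axis, 0 to 1) of Snhg3 and of the 6 genes within 100 kb, with points for the median and bars for the range of 10 samples, and a dotted line at equal alleles. Snhg3 spans 0.294 to 0.346, and the other genes have medians of 0.480 to 0.590.

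The other hosts were close to balance. In all, 5 of 7 hosts had a B6 to Cast ratio that differed from 1 (edgeR adjusted p under 0.05), against 73.6% of tested genes, so that the count of hosts is near the background. Besides Snhg3, the log2 ratio was -0.14 (SE 0.05) in Gas5, 0.12 (SE 0.03) in Snhg1, 0.15 (SE 0.03) in Snhg5 and 0.15 (SE 0.04) in Snhg6. Snhg8, at -0.12 (SE 0.07), and Snhg12, at 0.07 (SE 0.04), were not called. The median over all tested genes was 0.12 toward B6, and B6 reads were 51.6% to 52.0% of allelic reads in every sample. When that offset was removed by scaling each allele's column by TMM, Gas5, Snhg3 and Snhg8 were called and Snhg1, Snhg5 and Snhg6 were not, with Snhg1 at -0.0074 and Snhg12 at -0.06. On that scale Snhg5 and Snhg6 both lay at 0.03.

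No host passed the test for a change of d-score over the time course. The counts called were 0 of 7 at 4, 8, 12 and 24 h against 0 h, where 0.361%, 1.66%, 2.15% and 2.64% of tested genes were called. The tested genes include X-linked ones, and the share among autosomal genes alone was not counted. DESeq2 called 0 as well, and at an unadjusted p under 0.05 there were at most 1 of 7 at each time, against 5.00% to 8.21% of tested genes. Snhg6 showed the lowest unadjusted p. It had d-scores of 0.575 and 0.539 at 0 h, 0.548 and 0.519 after 4 h, 0.499 and 0.515 after 8 h, 0.524 and 0.484 after 12 h, and 0.538 and 0.519 after 24 h. Its log2 ratio of B6 to Cast was lower by 0.30 at 12 h than at 0 h (95% interval -0.51 to -0.08, edgeR adjusted p = 0.241, unadjusted p = 0.00707). The samples of 8 and 12 h were below both of 0 h, a separation whose share among tested genes was not counted. Gas5 had 0.430 and 0.466 at 0 h and 0.492 and 0.507 at 24 h, a log2 difference of 0.28 (95% interval 0.01 to 0.54, edgeR adjusted p = 0.564). The 0.575 of Snhg6 and the 0.430 of Gas5 both came from replicate 1 of 0 h, the sample with the lowest allelic share. Snhg3 at 24 h differed from 0 h by 0.16 (95% interval -0.01 to 0.34). With 157 to 325 allelic reads the interval of Snhg8 at 24 h was -0.11 to 0.67, and shifts within it were not detectable at this depth.

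**Figure D5:**
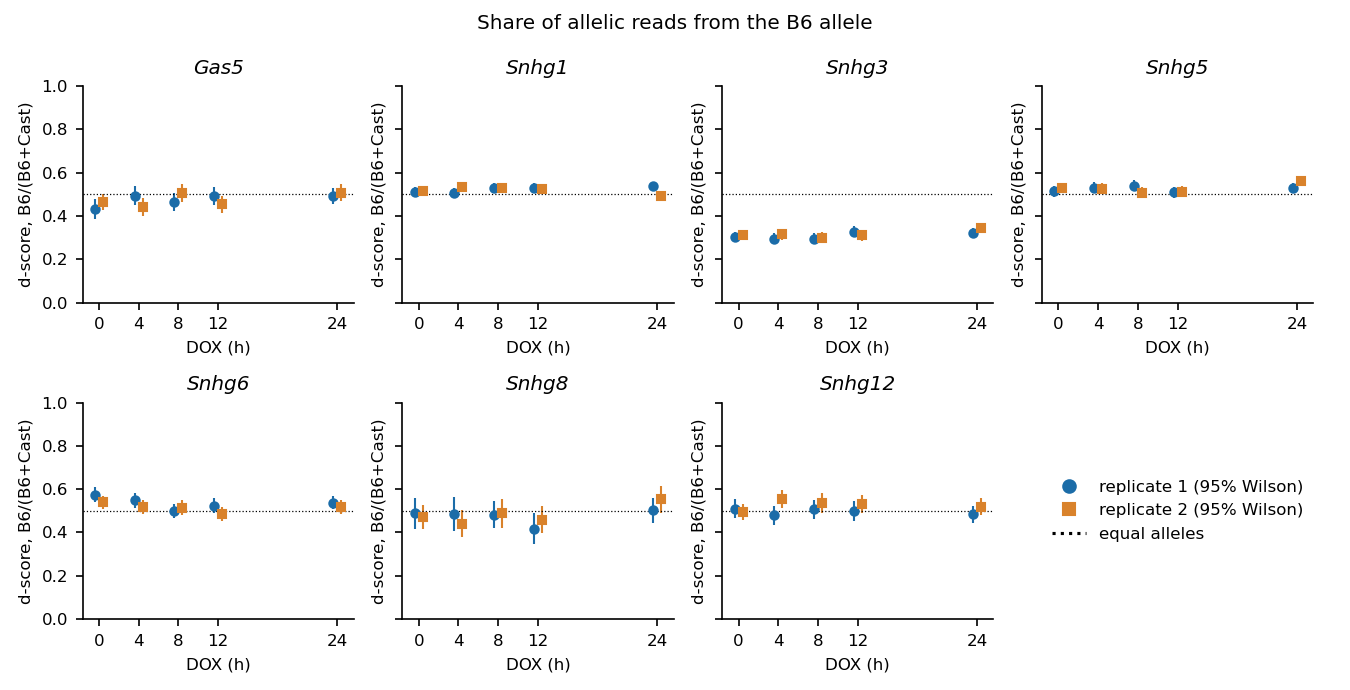
d-score of each host (vertical axis, 0 to 1) against hours of DOX, with circles for replicate 1, squares for replicate 2, 95% Wilson intervals as bars and a dotted line at equal alleles. Snhg3 lies between 0.294 and 0.346 in all 10 samples, and the other 6 hosts lie between 0.415 and 0.575.

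The genes whose profile over the 10 samples was most like the mean profile of the 7 hosts were found among all tested genes, by Pearson's r of log2(CPM + 1) with the mean of the standardized values. They included 2410006H16Rik (r = 0.957), Taf7 (0.953), Dusp6 (0.945) and Ybey (0.943). The gene at the head, 2410006H16Rik, had 71.0 to 97.7 CPM and log2 changes of -0.19 after 12 h against 0 h and 0.35 after 24 h against 12 h. It holds a snoRNA row inside its own span. The 10 points share libraries and time points, and the values of r are a description.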

How the data were processed

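TT-seq of 10 samples was used, 2 at each of 5 time points. Per the study's methods, the authors trimmed reads with Cutadapt, aligned them with STAR to a genome masked at positions that differ between the strains, assigned them to alleles with SNPSplit and counted them by strand with featureCounts 1.5.1 over the longest refFlat span. The submitters' processing notes name mm10, TopHat2 2.1.0, bedtools and featureCounts 1.5.1 without roles. The deposited counts (all, B6 and Cast reads per gene) are not normalized, and neither removal of duplicates nor use of the spike-ins is stated for them, so that a change shared by all genes would not be seen. The deposited fraction is B6 over B6 plus Cast counts and is given for genes with at least 10 allelic reads, and it matched the counts in every table.

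Total counts were tested with edgeR 4.0.16 (R 4.3.3, filterByExpr, TMM, quasi-likelihood, a factor for time or hours as a trend) on 14525 genes. Allelic counts were tested on the 11906 genes that reached 10 allelic reads in each of the samples, with a term per sample and the same library size for both alleles. Benjamini-Hochberg adjustment ran over all genes tested. CPM is TMM-scaled, and levels per kb use the whole span. Intervals are 95% and cover, for shares, counting error only. The scripts were tested on simulated data. Alternatives were other scaling, no filter, DESeq2 1.42.0, at least 50 allelic reads, the replicate number as a block and leaving out each library. The comparison of 24 h with 12 h, the counts of the dip and the start site features were added after seeing the data. Members, gene lists and tests were chosen with earlier results of these data known.

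The named genes are the 7 hosts, neighbors within 1000 bases or 100 kb, the 5 genes most like their mean profile (of which 1 is not reported here), and listed genes that were called or serve as examples, which were picked after their values were seen. Same-numbered samples deviated together in total counts over all tested genes, with correlations of 0.142 to 0.281 in all 10 pairs of time points. The main tests of total counts nevertheless did not pair the samples by number, and the block was run only as an alternative. In the hosts the order of the replicates changed between time points. In the ratio of B6 to Cast counts the correlations were 0.000396 to 0.0324 and the numbers were not taken to pair the samples. Replicates of a time point differed by more than sampling noise (chi-square per degree of freedom 5.08 to 10.8, the highest at 0 h).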

Additional observations from a re-analysis of the deposited data

How the results depend on the processing

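No alternative called a host in a comparison with 0 h, in the trend or in the change of B6 share. With the replicate number as a block, the genes called numbered 5 after 4 h, 108 after 8 h, 718 after 12 h, 773 after 24 h and 824 in the trend (without it 2, 28, 138, 269 and 458), and 215 at 24 h against 12 h (without it 1), of which 2 were hosts, and the block changed no other call of a host. Without the filter on low counts the numbers were 53 after 8 h, 266 after 12 h and 19 at 24 h against 12 h. With DESeq2 they were 50 after 8 h and 22 at 24 h against 12 h, and 14 after 4 h and 125 after 8 h for the B6 share (43 and 198 with edgeR). DESeq2 gave no adjusted p for Snhg8 and Snhg12 in the B6 share at 4 h. With TMM scaling per allele the hosts called for B6 against Cast fell from 5 to 3, Snhg1 moved to -0.0074 and Snhg12 to -0.0566, and the B6 share of Snhg1 at 24 h moved to 0.0008. The causes were not tested.

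Leaving out 1 library at a time gave the following lowest and highest values. Genes called ran from 1 to 2 after 4 h, 5 to 29 after 8 h, 53 to 222 after 12 h, 131 to 268 after 24 h, 0 to 1 at 24 h against 12 h and 300 to 450 in the trend, and from 24 to 43 for the B6 share after 4 h. Log2 changes of total counts at 4 h ran from -0.15 to 0.12 in Gas5, -0.19 to 0.0071 in Snhg1, -0.12 to 0.0765 in Snhg5, -0.11 to 0.17 in Snhg6 and -0.29 to 0.21 in Snhg8. At 8 h they ran from -0.25 to 0.0149 in Gas5, -0.28 to 0.0011 in Snhg6 and -0.38 to 0.11 in Snhg8. At 12 h they ran from -0.24 to 0.0245 in Gas5, -0.27 to 0.0106 in Snhg6 and -0.44 to 0.0491 in Snhg8. At 24 h they ran from -0.0074 to 0.26 in Gas5, -0.0229 to 0.15 in Snhg1, -0.0534 to 0.12 in Snhg5, -0.0484 to 0.28 in Snhg6, -0.13 to 0.37 in Snhg8 and -0.0128 to 0.11 in Snhg12. In the trend they ran from -0.0128 to 0.22 in Gas5, -0.0754 to 0.11 in Snhg5, -0.11 to 0.21 in Snhg6, -0.0679 to 0.28 in Snhg8 and -0.0327 to 0.14 in Snhg12. For the B6 share at 4 h they ran from -0.0538 to 0.25 in Gas5, -0.0409 to 0.11 in Snhg1, -0.0952 to 0.0489 in Snhg3, -0.21 to 0.0368 in Snhg8 and -0.13 to 0.32 in Snhg12. At 8 h they ran from -0.0806 to 0.11 in Snhg5 and -0.0254 to 0.08 in Snhg8, after 12 h from -0.0034 to 0.18 in Snhg12, and after 24 h from -0.13 to 0.13 in Snhg1 and -0.0991 to 0.11 in Snhg12. Without replicate 2 of 24 h, Snhg8 was called for B6 against Cast (log2 -0.17, edgeR adjusted p = 0.0195, and 0.00264 to 0.252 over all alternatives). Of the other values of single hosts, 724 without 1 library and 298 under other settings kept their direction and their side of the threshold. With 2 replicates a time point, changes within the intervals given above cannot be resolved.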

Other observations

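Other genes that hold a snoRNA row inside their span were read as a group. There were 69 such rows besides the 7 hosts, of which 67 were tested, and 7 of the 69 also stand in the list of other noncoding hosts. Their median log2 change of total counts was -0.10 after 8 h, -0.13 after 12 h and -0.02 after 24 h against 0 h, and 0.09 at 24 h against 12 h. The means at 8 and 12 h were both below those at 0 and 24 h in 39 of the 67 (58.2%). That form was found in 20.4% of all tested genes and in 35.6% of those no longer than Gas5. All samples of 8 and 12 h were below both of 24 h in 11 of the 67 (16.4%). This is near the 11.4% of all tested genes and the 14.4% of those no longer than Gas5. The genes called in total counts were Rbmx and Rpl39, and both are X-linked. Rbmx, which encodes an RNA-binding protein of the spliceosome and is host to a snoRNA, was lower after 8 h (log2 -0.56), 12 h (log2 -0.84) and 24 h (log2 -0.78, edgeR adjusted p = 9.51e-05), and its B6 share fell with it (log2 ratio -2.18 after 24 h against 0 h). Rpl39, a protein of the large ribosomal subunit, was lower in the trend over hours (log2 -0.40 per 24 h, edgeR adjusted p = 0.0338). The B6 share of Rpl10, another X-linked gene of the large subunit, was called lower after 12 h (log2 ratio -0.74) and 24 h (log2 ratio -0.67).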
